A study of Anguilla anguilla with 45 samples.

Results

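In the caudal fins of wild European eels (Anguilla anguilla) from the Garonne, 96 contigs were almost never measured, although the fins of eels from Certes gave values for them. A contig is an assembled transcript sequence, and the files name it only by a number. The 96 are part of 992 contigs on the array. No contig number matched a gene in the RefSeq table of the eel genome (0 of 992), so no gene, function or sequence is given here and contigs are called by their number. For the same reason the labelled tissues could not be checked against marker genes.

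The 96 contigs were chosen by their values, in steps. A value on at most 1 of the 5 Garonne arrays was the first condition, and 429 contigs met it. Of these, 175 also had a value on at least 4 of the 5 Certes arrays. The other conditions used F, the mean log2 ratio over the 10 fin arrays of laboratory control and Certes eels, and L, the mean over the 10 liver arrays, with 5 or more values in each. This left 170 contigs. F minus L lay between -2 and 2 in 138 of them, and the mean of F and L between -0.75 and 0.75 in 96. These limits hold the mean of both tissues near 0, the median of every array. They still allow distance in each tissue, with F between -1.06 and 1.71 and L between -1.72 and 1.44 among the members. The member with the highest F minus L lay at 1.99, and the nearest contig above the limit at 2.03. The lowest F minus L among members was -1.90, and the lower limit removed no contig. For the mean of F and L the nearest members lay at 0.74 and -0.74, and the nearest contigs outside at 0.80 and -0.76. By the counts, 40 members had 1 Garonne value and 43 had 4 Certes values. Just outside, 31 contigs had 2 Garonne values and 53 had 3 Certes values, with the other limits met.

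The data are 45 microarrays with 2 colours, 5 in each of 9 groups. Wild eels, sampled from the fin only, came from the Garonne, the Gironde and Certes, and the labels give no contaminant level for them. Laboratory eels were exposed to cadmium (Cd) at 4 µg/L in water, were unexposed controls, or ate food with polychlorinated biphenyls (PCBs), with 50 ng/g in the lower and 300 ng/g in the higher dose group. The labels do not say per gram of what. Fins were measured in all these groups, and livers in the Cd and control groups. Age, sex, exposure time and strain are not given in the labels. Sample cDNA carried the dye Cy3 and shared each array with a common reference in Cy5. That reference pooled RNA of 30 wild Certes eels, 15 caught in 2011 and 15 in 2012, and its tissue is given as liver. The question named in the title is whether Cd and PCB exposure can be read from transcripts without killing the fish.

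The caudal fin is a skin-covered appendage with bony rays that can be clipped from a living fish and regrows. The liver is the main organ of detoxification: PCBs that bind the aryl hydrocarbon receptor induce detoxifying enzymes there, and Cd induces metallothioneins, small proteins that bind metals. With a common reference, every sample is read as a log2 ratio to the same RNA. Every array here has a median of 0. A value of 0 is thus the median ratio of the contigs measured on that array and need not be an equal signal in both colours. A missing value means that the table holds no ratio for that contig on that array. Why a value is missing is not given in the sources used here.

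Signed values take the ratio as sample over reference, which is likely from the dyes in the labels but is not stated with the values. If it ran the other way, all signs and directions below would turn. In bulk tissue, fewer cells of a type and less RNA per cell cannot be told apart.

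In Garonne fins, the members had 40 values in all. Eel A353 held 0 of the 96, A359 held 17, A360 held 14, A362 held 8 and A365 held 1. In Certes fins, the 5 arrays held 96, 96, 96, 89 and 60 of the members (A201, A203, A205, A207 and A210). Both sets of counts were fixed in part by the choice and are a description. The same arrays measured 404, 596, 580, 517 and 389 of all 992 contigs in the Garonne, against 935, 866, 861, 640 and 598 in Certes. Certes eel A210 and Garonne eel A359 had nearly the same number of measured contigs, 598 and 596, with 60 and 17 members among them. The choice asked for Certes values and few Garonne values, so this pair too is only a description.

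A value on at most 1 array of a group and on at least 4 Certes arrays was less common in the other groups. It was met by 175 contigs (17.6%) for the Garonne, by 41 (4.13%) for the Gironde, by 19 (1.92%) for 300 ng/g PCBs and by 5 (0.504%) for 50 ng/g PCBs. In Cd fins it was met by 0 contigs and in control fins by 2. For livers the numbers were 3 in Cd eels and 7 in control eels. Of the 41 contigs of the Gironde, 15 met the limits on F and L and 0 were members. Of the 19 of the 300 ng/g group, 9 met these limits and 7 were members. Over all contigs 486 met these limits, 96 of them members. Before the condition on Certes values, 45 contigs had at most 1 value in the Gironde, 86 at 300 ng/g and 429 in the Garonne.

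**Figure D1:**
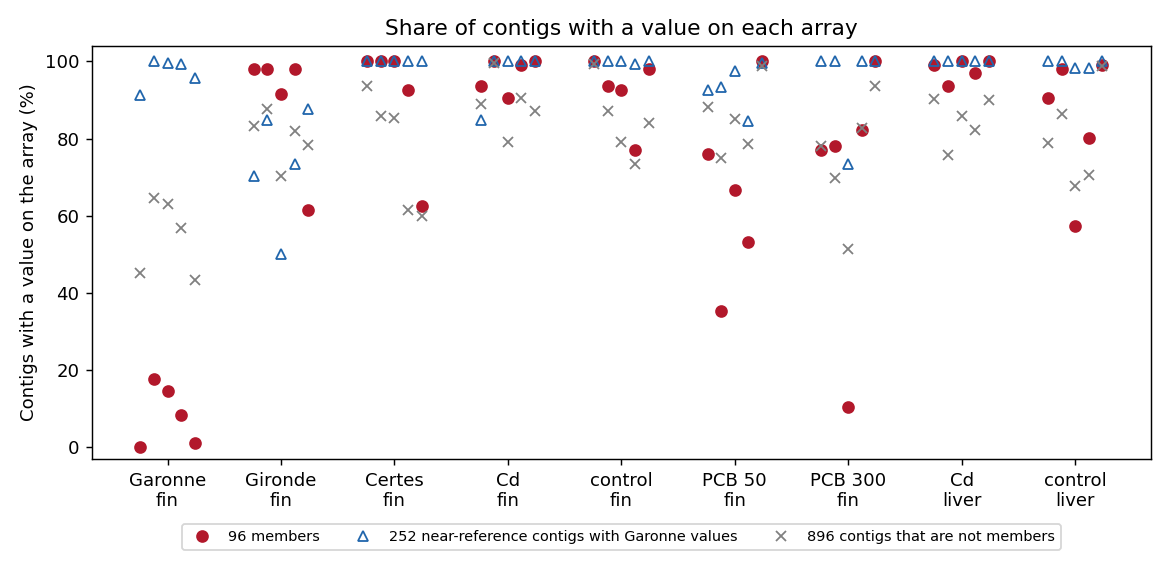
Share of contigs with a value (percent, vertical axis) on each of the 45 arrays, 5 points per group, for the 96 members (filled circles), 252 contigs within the same limits that had values on 4 or 5 Garonne arrays (open triangles) and the 896 contigs that are not members (crosses). Members lie between 0 and 17.7% on Garonne arrays, and on 4 of the 5 Gironde arrays they lie above the triangles.

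The closest contigs for comparison are 252 that met the same limits on F, L and Certes values but had a value on 4 or 5 Garonne arrays. Their Garonne counts were chosen too, while the Gironde, PCB and Cd fins took no part in choosing either list. In Gironde fins 94, 94, 88, 94 and 59 of the 96 members had a value (A302, A305, A306, A310 and A315), or 89.4 ± 15.8% (SD, n = 5). The 252 comparison contigs had values for 177, 214, 126, 185 and 221 on the same arrays, or 73.3 ± 15.0%. The members' share was therefore the higher one on A302, A305, A306 and A310 and the lower one on A315. Without A315 the shares were 96.4% for the members and 69.6% for the comparison contigs. The 896 contigs that are not members were at 80.3 ± 6.54% (SD, n = 5), and at 80.8% without A315. All 4 of the other Gironde arrays held 85 of the 96 members, and 31 of these 85 had no value on A315. Of the comparison contigs, 92 were on all 4, and 88 were on A315 but on at most 2 of the 4. No test was made of these shares, because the members were chosen with earlier results known.

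Gironde fins were set against control fins contig by contig with Fisher's exact test on arrays with and without a value (two-sided, 5 against 5). After Benjamini-Hochberg adjustment 0 of 992 contigs passed 0.05 (0% called), and the smallest adjusted p among members was 0.894. An unadjusted p under 0.05 was reached by 0 of the 96 members, against 63 of 992 contigs (6.35%). The smallest p that 5 against 5 arrays allow is 0.0079, so a contig can pass only if many share it. Among the comparison contigs 170 of 252 had fewer values in Gironde fins than in control fins and 0 had more, but 250 of the 252 had all 5 control values and could not have more. Among members 35 had fewer, 21 more and 40 the same number. Over all 992 contigs the counts were 424 fewer, 300 more and 268 the same. All 5 control values were held by 70.8% of the members and 63.0% of all contigs, which could not have more either.

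Under PCBs the members were measured less evenly. Control fins held 96, 90, 89, 74 and 94 members (fish 6 to 10), a share of 92.3 ± 9.01% (SD, n = 5). At 50 ng/g the counts were 73, 34, 64, 51 and 96 (fish 25 to 29), or 66.3 ± 24.3%, and at 300 ng/g 74, 75, 10, 79 and 96 (fish 31 to 35), or 69.6 ± 34.3%. Both dose groups overlap with the controls, since fish 29 and fish 35 held all 96. At 50 ng/g fish 25 to 28 lay below every control fin, while at 300 ng/g only fish 33 did. The comparison contigs were at 99.8 ± 0.355% in controls, 93.5 ± 5.83% at 50 ng/g and 94.7 ± 11.9% at 300 ng/g. The 896 contigs that are not members were at 84.6 ± 9.78%, 85.2 ± 9.28% and 75.2 ± 15.9% in the same groups. Without fish 33 the members' share at 300 ng/g was 84.4%, and without fish 26 it was 74.0% at 50 ng/g. The contigs that are not members were then at 81.1% and 87.7%. Fish 33 measured 470 of all contigs and fish 26 measured 706, against 701 to 936 and 755 to 982 on the other arrays of their groups. Their part in the members' counts was not tested.

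Contig by contig, 76 of 96 members had fewer values at 300 ng/g than in controls and 4 had more, against 482 and 107 of all 992 contigs. At 50 ng/g, 75 members had fewer values than in controls and 7 had more, against 351 and 228 of all contigs. The counts share the control arrays. All 5 control fins held 70.8% of the members and 63.0% of all contigs, and these could not have more values under PCBs. Control values also counted toward the 5 or more values asked for in F. The counts of more and fewer values are therefore a description. Fisher's exact test passed 0 of 992 contigs in either comparison after adjustment (0% called). At 300 ng/g, 2 members and 6 of all contigs (0.605%) had an unadjusted p under 0.05, and at 50 ng/g 1 member and 33 of all contigs (3.33%). Between the doses, 40 members had more values at 300 than at 50 ng/g, 27 had fewer and 29 had the same number. Over all 992 contigs 190 had more, 373 fewer and 429 the same number. Among the comparison contigs 36 had more and 31 fewer. Between the doses 0 of 992 contigs passed the adjusted threshold. There, 2 members and 42 of all contigs (4.23%) had an unadjusted p under 0.05.

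**Figure D2:**
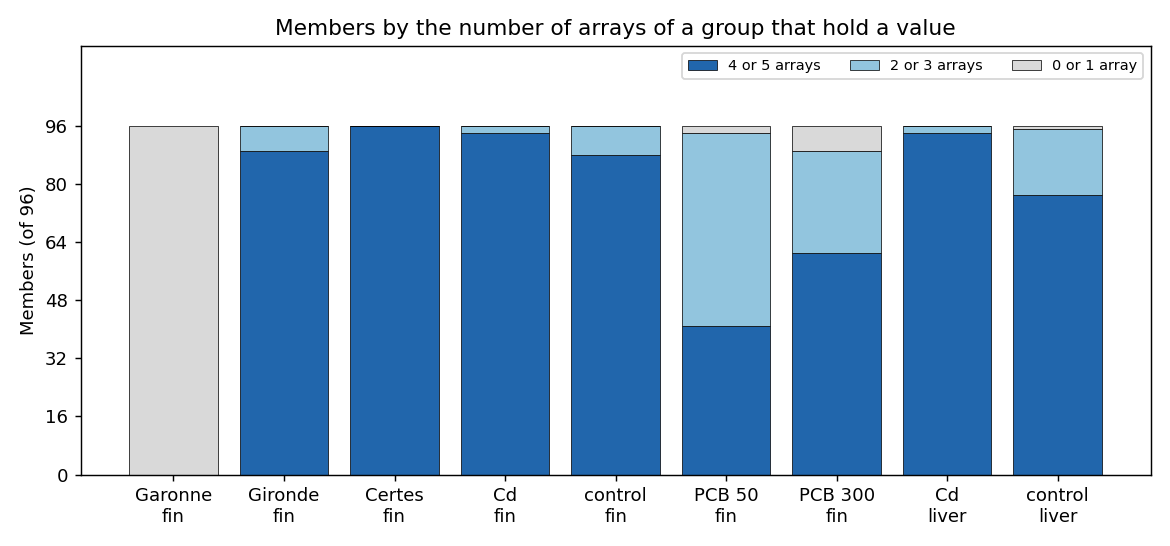
Number of the 96 members (vertical axis) by how many of the 5 arrays of a group hold a value, with 0 or 1, 2 or 3, and 4 or 5 arrays stacked. The Garonne and Certes bars are set by the choice of the members. At 50 ng/g PCBs 41 members had 4 or 5 values, at 300 ng/g 61, in control fins 88 and in Gironde fins 89.

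Cd fins held nearly all members, with 90, 96, 87, 95 and 96 on the arrays of fish 45, 47, 48, 49 and 50 (96.7 ± 4.26%, SD, n = 5), within the range of the controls. The comparison contigs were at 97.0 ± 6.74% in Cd fins, and the contigs that are not members at 89.0 ± 7.33%. Compared with control fins, 23 members had more values, 8 fewer and 65 the same number, against 252, 158 and 582 of all contigs. In liver, Cd eels held 95, 90, 96, 93 and 96 members (97.9 ± 2.66%), against 87, 94, 55, 77 and 95 in control eels (85.0 ± 17.2%). In Cd and control livers the comparison contigs were at 100% and 99.4%, and the contigs that are not members at 84.8% and 80.4%. More values in Cd than in control livers were found for 43 members, fewer for 0 and the same number for 53, against 270, 93 and 629 of all contigs. All 5 Cd livers held 88 of the members and 712 of all contigs, and these could not have fewer. The control share was 91.9% without fish 8, whose liver array measured 661 of all contigs. Fisher's exact test passed 0 of 992 contigs for Cd in fin and 0 in liver (0% called in each). Unadjusted p-values under 0.05 were found for 0 members in fin and 1 in liver, against 9 of 992 contigs (0.907%) in each tissue. The choice required 5 values over both liver groups, but not a difference between them.

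The members' counts can be set beside the number of contigs an array measured, which includes the members. Whether the counts moved together was not tested. On the 8 arrays with under 650 contigs, which are the 5 Garonne arrays, Certes A207 and A210, and fish 33, the members had 0 to 89 values. Of these arrays only fish 33 took no part in the choice, with 10 members among 470 contigs. Garonne eel A362 had 8 members among 517. Arrays with 701 to 755 measured contigs spread widely. Gironde eel A306 held 88 members among 717 contigs, fish 32 at 300 ng/g held 75 among 701, and fish 26 at 50 ng/g held 34 among 706. Control fish 9 held 74 among 731, and fish 28 at 50 ng/g 51 among 755. What sets an array's number of measured contigs was not tested.

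**Figure D3:**
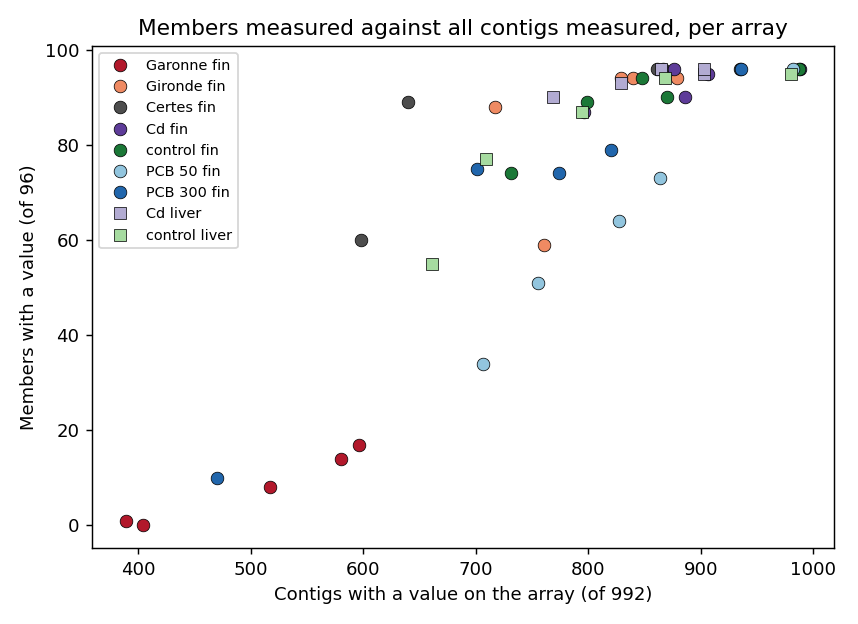
Members with a value (of 96, vertical axis) against all contigs with a value (of 992, horizontal axis), 1 point per array, circles for fin and squares for liver. Near 700 contigs the arrays range from 34 members (fish 26, 50 ng/g PCBs) to 88 (Gironde eel A306).

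No member was measured on all 35 arrays outside the Garonne and Certes groups, whereas 66 of all contigs and 51 of the comparison contigs were. The members had 23 to 34 of these 35 values, with a median of 30. The median was 33 in the comparison contigs and 30 over all contigs. contig_14935 and contig_17494 had the most, 34 each. contig_14935 lacked only fish 26 among these arrays, and its log2 ratios there ran from -6.29 in the liver of control fish 8 to 4.76 in the fin of control fish 9. contig_17807 had the fewest values, 23, and contig_33277 had 24. At 300 ng/g PCBs both were measured on fish 35 only, at 0.13 and 1.08. In Gironde fins both were measured on all 5 arrays, contig_17807 from -2.02 to 0.69 and contig_33277 from -0.85 to 0.59.

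The 40 members with 1 Garonne value can be set beside the 56 with none by where else they were measured. Their shares were 89.0% and 89.6% in Gironde fins, 74.5% and 66.1% at 300 ng/g PCBs, 68.0% and 65.0% at 50 ng/g, and 97.0% and 96.4% in Cd fins. The gap was wider in control livers, at 92.5% and 79.6%. The 40 single Garonne ratios had a median of 0.94, with a lowest value of -3.93 and a highest of 7.81, and 28 of them were above 0. Set against the same contig's Certes mean, 24 of the 40 (60.0%) were higher, with a median difference of 0.39. The comparison contigs on the Garonne arrays were higher than their Certes mean in 72.5% of values, with a median of 0.42. These pooled shares weigh the eels unequally, since most member values came from A359 and A360. On A359 the shares were 52.9% in members and 85.7% in comparison contigs, and on A360 57.1% and 68.9%. On A362, with 8 member values, the order turned, at 75.0% and 63.2%. A365 had 1 member value. Pooled over eels, absolute ratios had a median of 1.06 in the members and 0.68 in the comparison contigs. Over all contigs the median absolute ratio lay between 0.99 (A359) and 1.13 (A353) on the Garonne arrays. With 1 value per contig no test of Garonne against Certes could be made for any member.

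The level of the members is bounded by the choice in control and Certes fins and in liver. F had a median of 0.53 and L of -0.46, and 81 of the 96 members had F above L, against 77 of the 252 comparison contigs. These limits are symmetric, and the values are given as a description. By array, the median log2 ratio of the measured members was 0.18, 0.10, 0.27, 1.31 and 1.32 in Certes fins, the last 2 being A207 and A210 with 640 and 598 measured contigs. In control fins it lay between 0.03 and 0.31. In liver it lay between -0.51 and -0.22 in Cd eels, against -0.93 to 0.14 in control eels, where fish 8 gave -0.93 with 661 contigs and fish 10 gave 0.14 with 980.

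Outside the arrays used for the choice, members lay on both sides of 0, so that their signed median says little of their distance from it. In Gironde fins their median ratio was -0.02, 0.05, -0.32, -0.11 and -0.16. In Cd fins it was 0.48, -0.05, -0.43, -0.02 and 0.19. At 50 ng/g PCBs it was 0.15, -0.71, 0.04, -0.72 and -0.04, and at 300 ng/g 0.64, 0.60, 0.07, 0.31 and -0.05. The median absolute ratio at 50 ng/g was 1.15, 1.13, 0.89, 1.24 and 0.32 in the members, against 0.76, 0.69, 0.46, 1.20 and 0.25 in the comparison contigs. At 300 ng/g it was 0.94, 0.79, 1.97, 0.74 and 0.40, against 0.47, 0.48, 0.96, 0.49 and 0.55. Members thus lay farther from 0 than the comparison contigs on 9 of the 10 PCB arrays, with fish 35 the exception. Over all contigs the median was 0.63, 1.25, 0.70, 0.94 and 0.31 at 50 ng/g, and 0.96, 0.80, 2.12, 0.88 and 0.66 at 300 ng/g. Against all contigs, members lay closer to 0 on fish 26 and on every 300 ng/g array, and farther on fish 25, 27, 28 and 29. In Gironde fins the median absolute ratio was 0.37, 0.23, 0.44 and 0.36 on A302, A305, A306 and A310 but 1.15 on A315. The comparison contigs lay farther from 0 on the first 4 of these arrays, at 1.24, 1.05, 2.57 and 1.01, and at 1.13 on A315. In Cd fins the array of fish 45 had a median absolute ratio of 1.67 in the members and 2.01 in the comparison contigs, against 0.36 to 0.62 and 0.30 to 0.56 on the other 4.

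**Figure D4:**
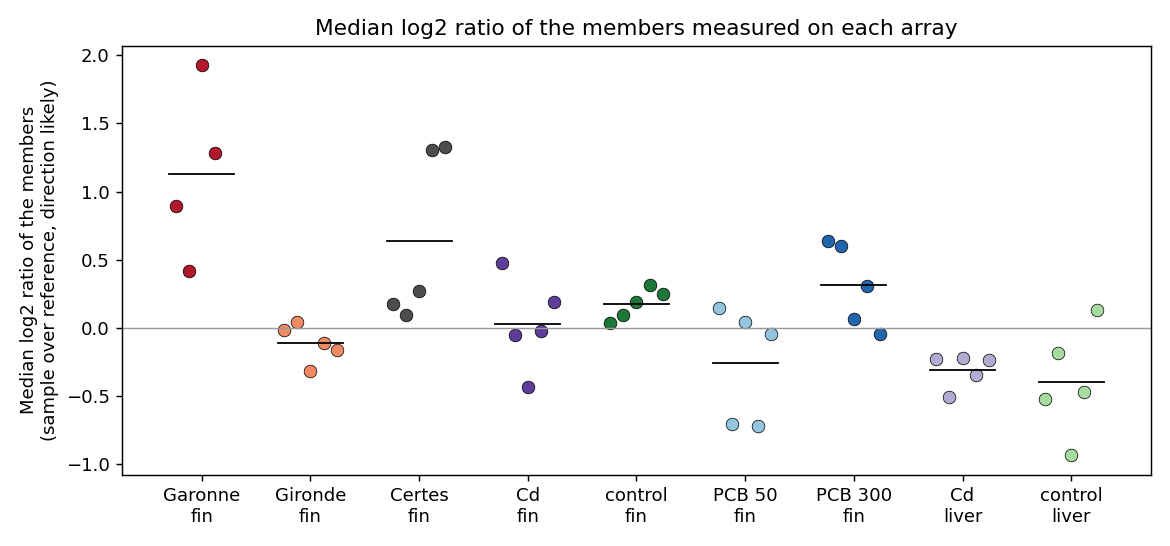
Median log2 ratio of the members measured on each array (vertical axis), 1 point per array, with horizontal bars for the mean of a group's points. Garonne points rest on 17, 14, 8 and 1 members, and A353 has none. Certes A207 and A210 stand at 1.31 and 1.32, above the other 3 Certes arrays.

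Spread between arrays of a group was compared over contigs with at least 3 values. The members' median SD was 0.63 in Gironde fins, 0.70 in control fins, 1.58 at 50 ng/g and 0.83 at 300 ng/g PCBs, and 1.09 in Cd fins. Over all contigs the same medians were 0.81, 0.63, 1.14, 0.75 and 1.16. In the comparison contigs they were 1.59, 0.43, 0.89, 0.55 and 0.83. The members' median lay above that of the comparison contigs in control, PCB and Cd fins and below it in Gironde fins, while against all contigs it was also the lower one in Cd fins. In liver their median SD was 0.57 in Cd eels and 0.88 in control eels, against 0.50 and 0.73 over all contigs. No test was made of these medians.

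The PCB arrays took no part in the choice, so the differences between the doses rest on no array used for it. The choice can still enter the limma p-values. Their variance came from a fit of all fin arrays, including the control, Certes and Garonne arrays used for the choice. The members' counts of calls and of unadjusted p-values, and their shares against all contigs, are therefore a description. In 300 against 50 ng/g fins, limma called 4 of the 88 members tested at an adjusted p under 0.05, 2 higher and 2 lower at 300 ng/g. Over all contigs 122 of 900 were called (13.6% called), 5.22% higher and 8.33% lower, against 4.55% of the members. Among contigs with at least 4 values in each dose group the shares were alike, with 4 of 27 members and 77 of 536 contigs called. The split over all contigs moved with the scaling, with 51 higher and 29 lower under quantile normalization, against 47 and 75. At an unadjusted p under 0.05 there were 14 members, or 15.9% of those tested, against 29.6% of all contigs. Differences were above 0 in 53 of 88 members, with a median of 0.51, against 428 of 900 contigs with a median of -0.10. The members' median was 0.27 without fish 28 and 0.28 without fish 32, with 47 of 84 differences above 0 in each case. The median over all contigs was 0.02 without fish 28 and -0.08 without fish 32.

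contig_17494 had log2 ratios of -1.59, -1.26, -2.64 and -1.07 at 300 ng/g (fish 31, 32, 34 and 35, with no value on fish 33), against 3.38, 0.60, 0.62, 5.26 and 1.35 at 50 ng/g. The doses did not overlap. It was lower at 300 ng/g by a difference of -3.88 ± 0.79 (SE, limma adjusted p = 0.0022). contig_35309 ran the other way, with 2.43, 1.63, 0.95 and 0.33 at 300 ng/g, against -5.57, -1.63, -2.32 and 0.47 at 50 ng/g. Fish 29 at 50 ng/g, with 0.47, overlapped with the higher dose, and the difference was 3.60 ± 0.77 (SE, limma adjusted p = 0.0025). contig_26553 stood at 1.31 ± 0.47 at 300 ng/g and -0.75 ± 1.08 at 50 ng/g (SD, n = 4 each), a difference of 2.07 ± 0.54 (limma adjusted p = 0.013). contig_15239 stood at -0.04 ± 0.71 at 300 ng/g and 2.30 ± 2.53 at 50 ng/g (SD, n = 5 each), a difference of -2.34 ± 0.76 (limma adjusted p = 0.037). The doses did not overlap for contig_26553 and overlapped for contig_15239.

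Single arrays decided part of these calls. The call of contig_26553 ended without fish 25, at 1.61. That of contig_15239 ended when fish 25, 27 or 28 (50 ng/g) was left out, at -2.39, -2.37 and -1.29, and when fish 31, 33 or 34 (300 ng/g) was, at -2.20, -2.23 and -2.33. Without fish 28 there were 7 members called. In a fit of these 10 arrays alone contig_17494 was the only one of the 4 past the threshold. Recentring, and turning the sign of fish 26, each ended the calls of contig_26553, at 2.08 and 1.56, and contig_15239, at -2.29 and -2.28. Array weights also ended the call of contig_15239, at -1.38 (limma adjusted p = 0.122).

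**Figure D5:**
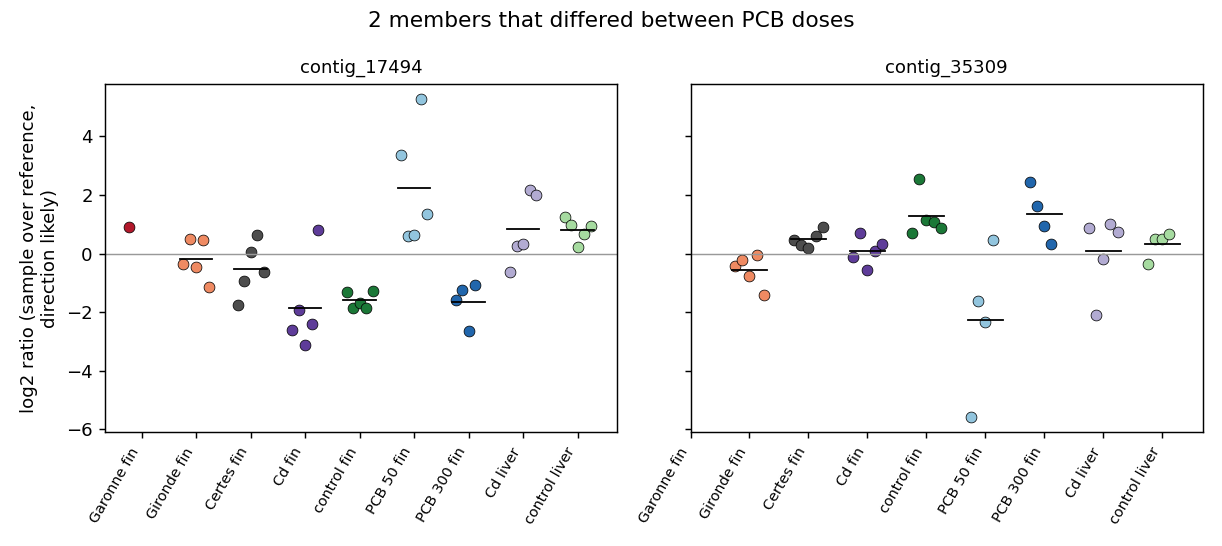
Log2 ratios (vertical axis) of contig_17494 and contig_35309 on every array with a value, by group, with horizontal bars for group means where more than 1 array has a value. contig_17494 lies at 0.60 to 5.26 at 50 ng/g PCBs and at -2.64 to -1.07 at 300 ng/g, and contig_35309 has no Garonne value.

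Against control fins, 50 ng/g PCBs gave 2 called members of 94 tested, 1 higher and 1 lower, where 71 of 947 contigs were called (7.5% called, 4.54% higher and 2.96% lower). Quantile normalization turned that balance over all contigs, to 42 higher and 52 lower, against 43 and 28. At an unadjusted p under 0.05 there were 11 members, against 20.1% of all contigs. The control arrays entered the choice through F and are shared with the other comparisons with controls, so the counts are a description. contig_17494 was higher, with a mean of 2.24 ± 2.03 at 50 ng/g and -1.59 ± 0.28 in controls (SD over 5 arrays in each group). The difference was 3.83 ± 0.75 (SE, limma adjusted p = 0.0014). Its control values, from -1.85 to -1.29, lay below every 50 ng/g value. contig_35309 was lower, at -2.26 ± 2.50 (n = 4) in 50 ng/g fins and 1.27 ± 0.73 (n = 5) in control fins, a difference of -3.53 ± 0.73 (limma adjusted p = 0.0027). All its 50 ng/g values lay below the control range of 0.71 to 2.53. Without fish 29, 4 of 77 members were called, against 65 of 881 contigs (7.38%). Quantile normalization called 2 higher and 4 lower members. The call of contig_35309 ended in a fit of these 10 arrays alone, at -3.53, and with the sign of fish 26 turned, at -2.72.

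At 300 ng/g against control, limma called 0 of 89 members, as it called 0 of 882 contigs (0% called). An unadjusted p under 0.05 was found for 5 members and 39 of all contigs (4.42%). The smallest p among members belonged to contig_23666, with 2.25, 0.01, 3.83 and -0.11 in 300 ng/g fins, against -0.76, -0.76, -0.83, -0.03 and 0.65 in control fins (limma adjusted p = 0.785). Its groups overlap, and the difference of 1.84 was 1.06 without fish 34. contig_16238 had 2 values at 300 ng/g, -4.82 and -0.82, against -0.24, 0.00 and 0.05 in control fins (limma adjusted p = 0.998).

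Cd passed 0 of 96 members in fin and 0 of 95 in liver with limma, as it passed 0 of 951 and 0 of 897 contigs (0% called in each). In fin, 4 members had an unadjusted p under 0.05, against 75 of all contigs (7.89%), and in liver 8 members, against 73 (8.14%). The fin differences lay below 0 in 62 of the 96 members, with a median of -0.27, while the median over all contigs was 0.0012. Single arrays moved the members' median. It was -0.11 without fish 48, with 45 of 96 differences above 0, and -0.36 without fish 45, with 20 above 0. The median over all contigs was 0.04 without fish 48 and -0.07 without fish 45. Recentring gave -0.48 in the members and -0.20 over all contigs. The control fins and both liver groups entered the choice. contig_5874 was at -2.08, -0.23, -1.61, -0.71 and 0.72 in Cd fins, against -0.30, -0.04, 2.24 and 1.70 in control fins (limma adjusted p = 0.592). contig_10202 had means of 0.06 ± 0.52 in Cd fins and 1.53 ± 1.45 in controls (SD over 5 arrays in each group, limma adjusted p = 0.592), and both pairs of groups overlapped.

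In liver the smallest p-values among members were those of contig_1608 and contig_13165. contig_1608 was at -0.17, -0.79, -0.33 and -0.55 in Cd livers, against 3.02 and 7.45 in the only 2 control livers with a value (limma adjusted p = 0.461). contig_13165 was at 0.80, -0.10, 0.61, 0.38 and -0.30 in Cd livers, against -1.54, -1.35, -1.38, -1.89 and 0.14 in control livers, a difference of 1.48 ± 0.41 (SE, limma adjusted p = 0.461). The contig_1608 groups did not overlap, while control fish 10 overlapped with the Cd livers for contig_13165. Over the members the median liver difference was -0.02, with 45 of 95 above 0, and 0.23 without control fish 10. Over all contigs it was 0.09, with 499 of 897 above 0, and 0.14 without control fish 10.

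Gironde fins differed from Certes fins in 5 of 96 members by limma, 5 lower and 0 higher, where 62 of 850 contigs were lower (7.29% called) and 92 higher (10.8% called), together 18.1%. Recentring turned the balance over all contigs, to 49 higher and 161 lower. At an unadjusted p under 0.05 there were 15 members, against 29.2% of all contigs. Certes values entered the choice, so this is a description. Differences were above 0 in 18 of the 96 members, with a median of -0.81, against 360 of 850 contigs with a median of -0.27. Certes A207 and A210, the arrays with 640 and 598 contigs, had the higher medians of the members given above. Leaving out both, 31 of the 96 differences were above 0, their median was -0.38 and 1 member was called. Over all contigs the median was then -0.12, and 84 of 844 were called. contig_6064 had -2.05 and -1.08 in Gironde fins (A305 and A310 only), against 2.07, 1.45, 1.00, 2.34 and 5.46 in Certes fins, a difference of -4.03 ± 1.13 (SE, limma adjusted p = 0.015). It could not be tested without A305 or A310. contig_13894 had -0.45, -0.23, -0.36, -0.40 and -4.72 in Gironde fins, against 1.02, 1.19, 3.60 and 3.28 in Certes fins, a difference of -3.50 ± 1.09 (limma adjusted p = 0.028). The groups of neither contig overlapped. Without both A207 and A210 neither passed, at -3.07 and -3.17.

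The call of contig_13894 ended without Certes A205 or A207, at -3.06 and -3.17, and without Gironde A315, at -2.63, and with the sign of A306 turned, at -3.36. The number of called members fell to 3 without Certes A205 or A207 or Gironde A302, and to 2 without Gironde A310. Over all contigs these fits gave 106 to 124 calls, against 154. When arrays were recentred on the 65 contigs measured on every fin array, 23 members were called, all lower. It moved the median difference over all contigs to -1.36 and that of the members to -1.98.

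Control and Certes fins differed in 0 of 96 members by limma, and in 0 of 876 contigs (0% called). Both groups are the arrays that make up F, so these values too are a description. An unadjusted p under 0.05 was found for 6 members and 50 of all contigs (5.71%). contig_38621 was at -1.01, -0.88, -1.90, 0.33 and -2.31 in control fins, against 1.19, -0.07, 1.13, 0.83 and 0.54 in Certes fins (limma adjusted p = 0.324). contig_27263 was at -0.68 ± 0.45 in control fins and 0.81 ± 0.55 in Certes fins (SD, n = 5 each, limma adjusted p = 0.554). The first pair overlapped and the second did not. Of the 96 differences 29 were above 0, with a median of -0.35, which was -0.13 without A207 and -0.19 without A210. Over all contigs 462 of 876 were above 0, with a median of 0.06, which was 0.10 without A207 and 0.12 without A210. Leaving out Certes A207 and A210, 52 of the 96 were above 0, with a median of 0.08, against 0.17 over all contigs.

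Fin and liver of Cd eels were compared last, with Cd livers inside the choice and Cd fins outside it. By limma 3 of 96 members were called, 2 higher and 1 lower in fin, where 124 of 926 contigs were called (13.4% called, 5.18% higher and 8.21% lower). Recentring turned this balance, to 80 higher and 49 lower contigs, against 48 and 76. These fits did not pair arrays by fish number. A block on that number gave 34 calls of 875 contigs and 3 of 95 members. Cd livers make up 5 of the 10 arrays in L, whose distance from F the choice limits, so the members' counts and p-values are a description. At an unadjusted p under 0.05 there were 21 members, against 33.3% of all contigs. contig_26553 was at 0.86, 0.12, 1.48, 0.94 and 0.54 in Cd fins, against -0.73, -0.99, -0.54, -0.74 and -0.49 in Cd livers, with no overlap and a difference of 1.48 ± 0.39 (SE, limma adjusted p = 0.021). contig_14224 was at 5.48, 0.23, 0.62, 0.67 and 0.70 in Cd fins, against -0.45, -1.32, -0.41, -1.72 and -1.06 in Cd livers, a difference of 2.53 ± 0.77 (limma adjusted p = 0.040). The highest of its fin values is that of fish 45, without which the difference was 1.55. With arrays blocked by fish number the difference was 2.53, and contig_14224 no longer passed. contig_17494 was lower in fin, at -1.85 ± 1.54 in Cd fins and 0.82 ± 1.21 in Cd livers (SD, n = 5 each), a difference of -2.67 ± 0.63 (limma adjusted p = 0.011), with fish 50 overlapping in fin at 0.81.

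Here too single arrays mattered. Without the fin array of fish 45 there were 12 called members of 96, 8 higher and 4 lower, against 244 of 911 contigs (26.8%). Without the fin array of fish 50 there were 5 called members, against 116 of 923 contigs. Without that of fish 49 only contig_17494 passed among the members, against 60 of 922 contigs. In that fit contig_26553 was at 1.45 and contig_14224 at 2.75. The call of contig_14224 also ended without the liver array of fish 45, 47, 48, 49 or 50, at 2.67, 2.45, 2.68, 2.35 and 2.52. In a fit of these 10 arrays alone contig_26553 kept its call, while contig_14224 and contig_17494 did not pass, at 2.53 and -2.67. Recentring called 8 higher members and 1 lower, and quantile normalization 8 higher and 2 lower. Over all 926 contigs they called 129 and 216.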

How the data were processed

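Per the labels' protocols, total RNA was reverse transcribed, sample cDNA was labelled with Cy3 and the common reference with Cy5. The values are the authors' deposited log2 ratios of 992 contigs on 45 arrays. The log base and the direction are not stated. Every array has a median of 0 and the largest absolute value is 17.5, so centred log2 ratios were taken as likely. For background correction, spot filters and averaging the sources used here give no method. A scanner table with 180 value columns and 3 spots per contig was not used, since its columns carry no sample names. Missing values, 21.1% of all, were left missing. Arrays have no depth; their number limits the precision.

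Groups came from sample titles. The members and lists were chosen with earlier results of these data known. limma 3.58.1 in R 4.3.3 (lmFit, eBayes) was fitted to all 35 fin arrays, to the 10 liver arrays, or to all 20 arrays of the Cd and control groups. A contig was tested with 2 or more values in each compared group, two-sided, with Benjamini-Hochberg adjustment over all contigs tested and a threshold of 0.05. Having a value was tested per contig with Fisher's exact test (SciPy 1.17.1). Per comparison at most 2 higher and 2 lower called members are named, with the largest differences; where none was called, the 2 with the smallest p; and the 2 members with the most and the 2 with the fewest values. The fitting was tested only on simulated, normally distributed values with a large fixed shift, so recovery of smaller differences was not examined. Of 990 pairs of arrays 9 correlated below -0.3, the lowest at -0.530 between fish 26 and fish 33. Because the labels give the dyes, all arrays were read in 1 direction. Alternatives were turning the sign of 1 array (fish 26, or eel A306), recentring, quantile normalization, 4 values per group, array weights, fits of the compared groups alone and leaving out arrays.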

Additional observations from a re-analysis of the deposited data

Results flagged for a closer look

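In groups of 4 or 5 arrays a value was picked out when its gap to the nearest other value took more than 0.829 (4 arrays) or 0.71 (5 arrays) of the group's range. Of 54 such sets, 7 had one. These limits give about 1 in 20 for independent, normally distributed values. Counts capped at 96, Certes counts bounded by the choice and contigs named for their results are not such values. The number of 7 can therefore not be set against chance. Gironde eel A315 held 59 members, against 88 to 94 on the other Gironde arrays. Fish 33 at 300 ng/g PCBs held 10, against 74 to 96, and Certes eel A210 held 60, against 89 to 96. contig_35309 was at 2.53 in the fin of control fish 7, and the other 4 control fins lay between 0.71 and 1.16. contig_13894 was at -4.72 in Gironde eel A315, and the other 4 Gironde fins lay between -0.45 and -0.23. contig_13165 was at 0.14 in the liver of control fish 10, with the other 4 control livers between -1.89 and -1.35. contig_14224 was at 5.48 in the fin of Cd fish 45, with the other 4 Cd fins between 0.23 and 0.70.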

How the results depend on the processing

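The number of members was 56 with no Garonne value allowed, 53 with all 5 Certes values required, 149 with 3 Certes values allowed and 51 with a limit of 1 on F minus L. Leaving out single arrays from F or L gave 87 to 98. Called members between 300 and 50 ng/g PCBs numbered 4, and 2 on recentring, 7 with array weights, 1 with only these groups fitted, and 3 to 7 without single arrays. Recentring moved the median over all contigs to 0.01. For 50 ng/g PCBs against control the count was 2, and 6 with quantile normalization, 1 with only these groups fitted, 1 with the sign of fish 26 turned, and 2 to 4 without single arrays. For Gironde against Certes it was 5, and 23 on recentring, 11 with quantile normalization, 3 with at least 4 values per group, 11 with array weights, 10 with only these groups fitted, 2 with the sign of A306 turned, 1 without A207 and A210, and 2 to 7 without single arrays. Control against Certes had 0, and 1 with array weights, contig_38621 at -2.10. Fin against liver in Cd eels had 3, and 9 on recentring, 10 with quantile normalization, 25 with array weights, and 1 to 12 without single arrays. The cause of these changes was not tested. Leaving out Certes A207 and A210 together, and leaving out arrays in the tests of having a value, were added after the data were seen. With recentring the median difference of all contigs was -0.20 for Cd in fin, -0.55 for control against Certes and 0.35 for fin against liver. Over all contigs, the count of calls for fin against liver in Cd eels was 216 with quantile normalization, 382 with array weights and 66 in a fit of these arrays alone, against 124. For Gironde against Certes array weights gave 244 calls, a minimum of 4 values 85, leaving out A207 and A210 84 and turning A306 69, against 154. Between the PCB doses array weights gave 160, recentring 88 and quantile normalization 80, against 122. A minimum of 4 values gave 77 there and a fit of these groups alone 61. For 50 ng/g against control quantile normalization gave 94, a fit of these groups alone 57 and recentring 43, against 71. With the sign of fish 26 turned it was 51. Array weights gave 9 calls for 300 ng/g against control and 16 for control against Certes, in place of 0. Without control fish 6, Cd in fin gave 9 in place of 0. No named contig changed sign in the 289 recomputed differences. Having a value was called for 0 contigs throughout, in a design that can hardly pass adjustment. Fish numbers are shared between fin and liver, and the labels do not say whether they mark the same animal. Deviations of same-numbered arrays correlated at -0.187 to 0.167. This cannot decide the question, since fin and liver of a fish need not deviate alike. The main fit did not pair the numbers. A replicate block on fish number gave 3 called members of 95, with contig_14224 no longer past the threshold at 2.53. Over all contigs the block gave 34 calls of 875 tested, against 124 of 926 without it. Values missing from an array limit every count: a contig without 2 values in a group was not tested.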
